A study of Homo sapiens with 17 samples.

Results

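CDKN1A, CDKN1B, CDKN1C, CDKN2A, CDKN2B, CDKN2C and CDKN2D encode the inhibitors of cyclin-dependent kinases (CDKs), and BTG1, BTG2 and TOB1 encode antiproliferative adaptor proteins. These 10 genes, of the 20033 protein-coding genes of the annotation, are described here by where the histone variant H2A.Z was found at their ends. They were chosen by name, with their earlier results in these data known, so their presence and rank in the lists are given as a description. A fit across all genes supplies differences with their SE, and its calls are printed as counts from which nothing is read. All 10 genes had an interval within 1 kb of an annotated end in at least 7 of 8 lists.

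Proteins of the CDKN1 family (p21, p27 and p57) bind cyclin-CDK complexes of several kinds, whereas those of the CDKN2 family (p16, p15, p18 and p19) bind CDK4 and CDK6 and keep them from cyclin D. BTG and TOB proteins recruit the CCR4-NOT deadenylase to messenger RNAs and slow proliferation. H2A.Z replaces H2A in some nucleosomes, typically in those beside transcription starts, and in human cells it is known to occupy the promoter of CDKN1A. Differentiating enterocytes leave the cell cycle as they mature, and CDK inhibitors take part in that exit.

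The cells were Caco-2/15, a line of human colon cancer cells that come to resemble enterocytes after confluence. In every group 1 allele of an H2A.Z gene carried a CRISPR-Cas9 insertion of the Flag tag in its 3′ region, H2AFV for H2A.Z.2 or H2AFZ for H2A.Z.1. Each list therefore shows the tagged copy alone, expressed from its own gene. The 4 groups were H2A.Z.2 in postconfluent cells (7 days after confluence), H2A.Z.1 in postconfluent cells, H2A.Z.2 in subconfluent cells and H2A.Z.1 in subconfluent cells. Each group had 2 peak lists, from experiments named Exp1 and Exp2, and the labels do not say whether a tagged line was 1 clone. The other 9 of the 17 labelled samples, of total H2A.Z and an input, are not analysed here.

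The lists held 30603 to 79425 intervals, so the 30603 intervals of highest −log10 p in each list were used. An interval's percentile is the rank of its fold enrichment within its own list, with 100 the strongest, and 0 is written where no interval was listed. The gene end is whichever annotated end had the higher mean over all 8 lists, and coordinates are on GRCh38. Depth is unknown from such lists, and a gene without an interval may hold signal under the threshold. The interval names show 3 sequencing runs: H2A.Z.2 Exp1 and H2A.Z.1 Exp1 were sequenced on a run each, and the 4 Exp2 lists shared the third. Isoform and run therefore cannot be told apart in Exp1, while state is compared within a run in every experiment. Each isoform was tagged in a line of its own, so isoform and line cannot be told apart in either experiment. Of 10 intestinal marker genes, 4 (CDX1, CDX2, HNF4A and CDH1) were occupied in all 8 lists, a share of 40% beside 54.3% of all protein-coding genes, so occupancy does not mark the cell type. VIL1, EPCAM, KRT8 and KRT18 were in 6, 5, 4 and 4 lists, and CDH17 and KRT20 in none. Of 7 markers of other cell types, COL1A1 was in 8 lists, CD3E in 6, SYP in 4, RBFOX3 in 1 and the others in none.

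Of the 10 genes, 7 were occupied at the gene end in all 8 lists: CDKN2A, CDKN2B, CDKN2C, CDKN2D, BTG1, BTG2 and TOB1. Among all protein-coding genes 54.3% were, and 66.9% were occupied in any list. CDKN1A, CDKN1B and CDKN1C were in 7 lists each, and the list that lacked them was always from subconfluent cells. It was H2A.Z.2 Exp2, the shortest list, for CDKN1A and CDKN1B, and H2A.Z.1 Exp1 for CDKN1C. At its whole length the H2A.Z.1 Exp1 list held CDKN1C at percentile 13.2, where its −log10 p ranked 41296, beyond the 30603 used, while H2A.Z.2 Exp2 held neither of the other pair at any length.

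By mean percentile over the 8 lists, the order was BTG1 (87.5 ± 5.48), CDKN2B (78.8 ± 9.40), CDKN2A (76.9 ± 10.6), CDKN2C (61.5 ± 18.1), CDKN2D (58.1 ± 15.3), BTG2 (57.9 ± 22.5), TOB1 (55.2 ± 33.8), CDKN1A (34.6 ± 24.6), CDKN1C (29.5 ± 23.6) and CDKN1B (15.7 ± 12.5; SD, n = 8 lists each). No gene differed from its neighbour in this order by more than the larger SD of the pair. At these gene ends the 3 CDKN1 genes stood below all 4 CDKN2 genes. At the RefSeq starts CDKN1A had a mean of 72.6 and CDKN2D of 22.1, and with a window of 2 kb CDKN1A, at 66.3, stood above CDKN2C and CDKN2D.

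**Figure D1:**
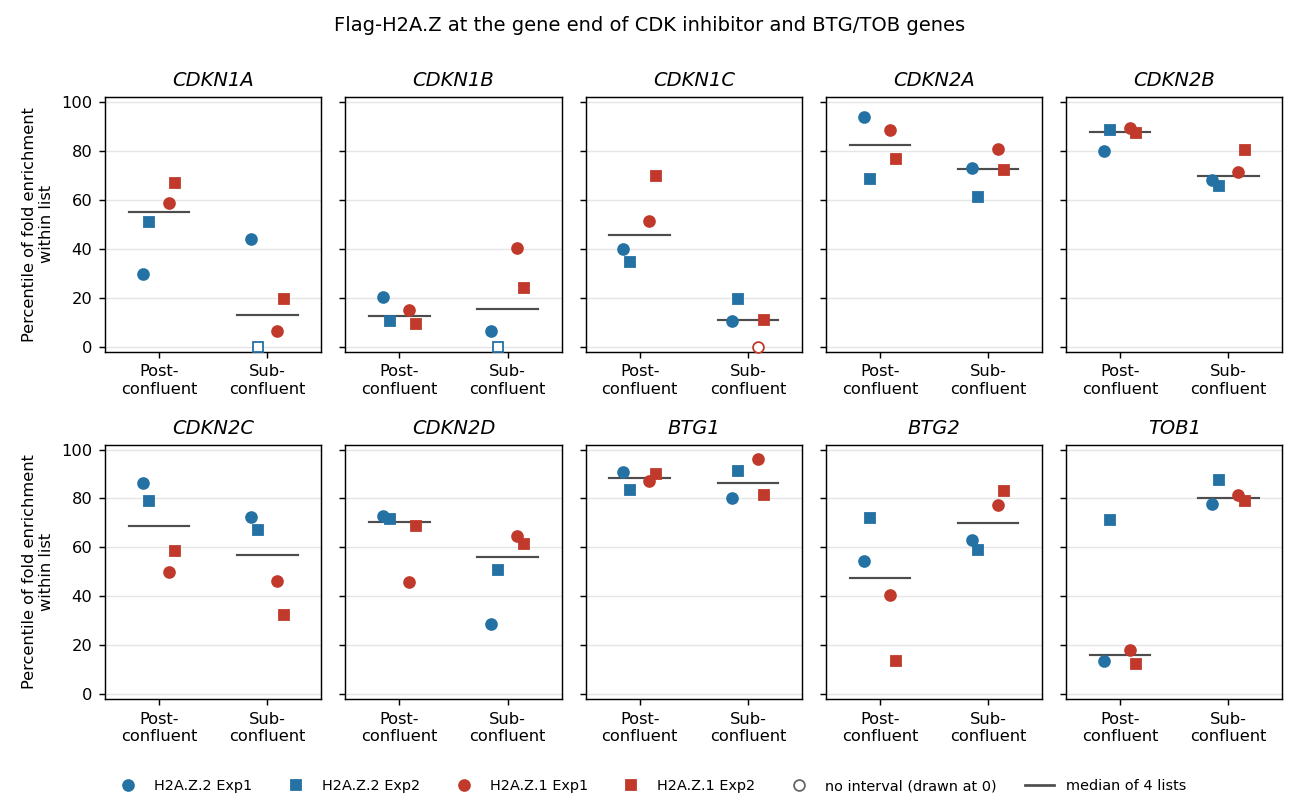
Percentile of fold enrichment (y axis) at the gene end of each gene in the 4 postconfluent (left) and 4 subconfluent lists (right); colours mark the isoform, shapes the experiment, open symbols a list without an interval and lines the median of 4 lists. The 4 postconfluent values of TOB1 lie under its 4 subconfluent values, those of CDKN1C above, and those of BTG1 stay between 83.5 and 90.7.

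TOB1 (chromosome 17, 50862223 to 50867978, minus strand) encodes a partner of the CNOT7 and CNOT8 deadenylases and had the largest difference in mean percentile between states of the 10 genes. In postconfluent cells its interval stood at percentiles 13.8 and 71.4 for H2A.Z.2 (Exp1, then Exp2, as in all pairs of values below) and at 18.1 and 12.4 for H2A.Z.1. In subconfluent cells it stood at 77.6 and 87.7 for H2A.Z.2 and at 81.3 and 79.0 for H2A.Z.1. All 4 postconfluent values lay below all 4 subconfluent values, and H2A.Z.2 Exp2 was far above the other postconfluent lists. The means were 28.9 ± 28.4 in postconfluent and 81.4 ± 4.46 in subconfluent cells (SD, n = 4 lists each). In bulk chromatin a lower rank and fewer cells with H2A.Z at the site cannot be told apart. Such a separation was present at 2.63% of the 13405 genes with an interval in any list. It was present for TOB1 under all 11 settings of list length, window, overlap, position and ranked value, including whole lists, where its percentiles were 30.4 to 82.9 in postconfluent and 87.7 to 90.4 in subconfluent cells. The settings of window, overlap, summit and position returned the same interval with the same percentiles, so they could not differ. Only those of list length and ranked value gave other values.

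The TOB1 interval kept its place while its rank and its summit differed. Its fold enrichment, the authors' own value within each list, was 3.97 and 8.97 for H2A.Z.2 and was 5.12 and 6.10 for H2A.Z.1 in postconfluent cells, against 9.37 and 9.86 for H2A.Z.2 and 11.5 and 11.4 for H2A.Z.1 in subconfluent cells. By −log10 p it ranked 12758 and 2727 for H2A.Z.2 and 11100 and 12961 for H2A.Z.1 in postconfluent lists, against 1431 and 844 for H2A.Z.2 and 1355 and 1152 for H2A.Z.1 in subconfluent lists. In every list it was 1 interval, 1358 to 1547 bp wide. It lay between the pair of RefSeq starts of the gene, from 54 to 136 bp before the outer start (50867978) to 182 to 368 bp before the inner start (50866354). The summit lay 800 and 140 bp after the outer start for H2A.Z.2 and 781 and 755 bp after it for H2A.Z.1 in postconfluent cells, against 103 and 92 bp for H2A.Z.2 and 112 and 162 bp for H2A.Z.1 in subconfluent cells. The 3 postconfluent lists in which TOB1 ranked low were thus also those with the summit far from the outer start, while the summit of H2A.Z.2 Exp2 lay among those of the subconfluent lists, although its percentile, fold enrichment and rank by −log10 p lay between those of the other postconfluent lists and the subconfluent lists. The interval also covers part of TOB1-AS1 (50866679 to 50868371), an antisense transcript, and cannot be assigned to either gene.

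The 250 bases before each TOB1 start are shown because the interval lies between them (RefSeq, GRCh38.p14, minus strand, 5′ to 3′). Capitals mark CCAAT or its reverse complement ATTGG, and GGGCGG or its reverse complement CCGCCC. The outer window, chr17:50867979-50868228, has a GC content of 38.4% and neither motif, and intervals covered 54 to 136 of its bases in the 8 lists. The inner window, chr17:50866355-50866604, has a GC content of 80.4% and both motifs, and intervals covered 0 to 69 of its bases.
TOB1 outer start: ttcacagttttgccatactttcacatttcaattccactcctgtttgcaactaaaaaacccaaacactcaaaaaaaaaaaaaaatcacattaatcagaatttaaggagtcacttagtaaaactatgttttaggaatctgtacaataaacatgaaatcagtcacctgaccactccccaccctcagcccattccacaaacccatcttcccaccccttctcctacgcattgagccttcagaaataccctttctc
TOB1 inner start: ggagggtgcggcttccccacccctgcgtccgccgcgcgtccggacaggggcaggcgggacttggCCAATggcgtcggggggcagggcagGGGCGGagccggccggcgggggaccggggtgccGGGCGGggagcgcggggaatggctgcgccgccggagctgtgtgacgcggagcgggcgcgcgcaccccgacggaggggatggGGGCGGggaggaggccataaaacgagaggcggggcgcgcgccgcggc

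BTG2 (chromosome 1, 203305519 to 203309602, plus strand), a p53 target that also binds CCR4-NOT, ranked lower in postconfluent cells for H2A.Z.1. Its percentiles for H2A.Z.1 were 40.6 and 13.4 in postconfluent cells, against 77.1 and 83.2 in subconfluent cells. For H2A.Z.2 they were 54.5 and 72.1 in postconfluent cells, against 62.9 and 59.0 in subconfluent cells. The groups did not overlap for H2A.Z.1 and overlapped for H2A.Z.2. As means these are 27.0 ± 19.3 and 80.2 ± 4.30 for H2A.Z.1, and 63.3 ± 12.5 and 61.0 ± 2.75 for H2A.Z.2 (postconfluent, then subconfluent; SD, n = 2 lists each).

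At BTG2 the intervals lay on either side of the start. The upstream interval began 488 to 611 bp before the start in all 8 lists, and ended 157 to 218 bp before it in 7. The other, H2A.Z.1 Exp1 of subconfluent cells, had 1 interval across the start, from 564 bp before to 795 bp after it. An interval that began between 45 bp before and 39 bp after the start, on its downstream side, was separately listed at percentile 42.4 in H2A.Z.2 Exp2 and 31.5 in H2A.Z.1 Exp1 of postconfluent cells. It stood at 50.2 and 58.0 for H2A.Z.2 and at 71.6 in H2A.Z.1 Exp2 of subconfluent cells. H2A.Z.2 Exp1 and H2A.Z.1 Exp2 of postconfluent cells had no downstream interval among those used. The upstream interval also lies within 1 kb of BTG2-DT, a divergent noncoding transcript.

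**Figure D2:**
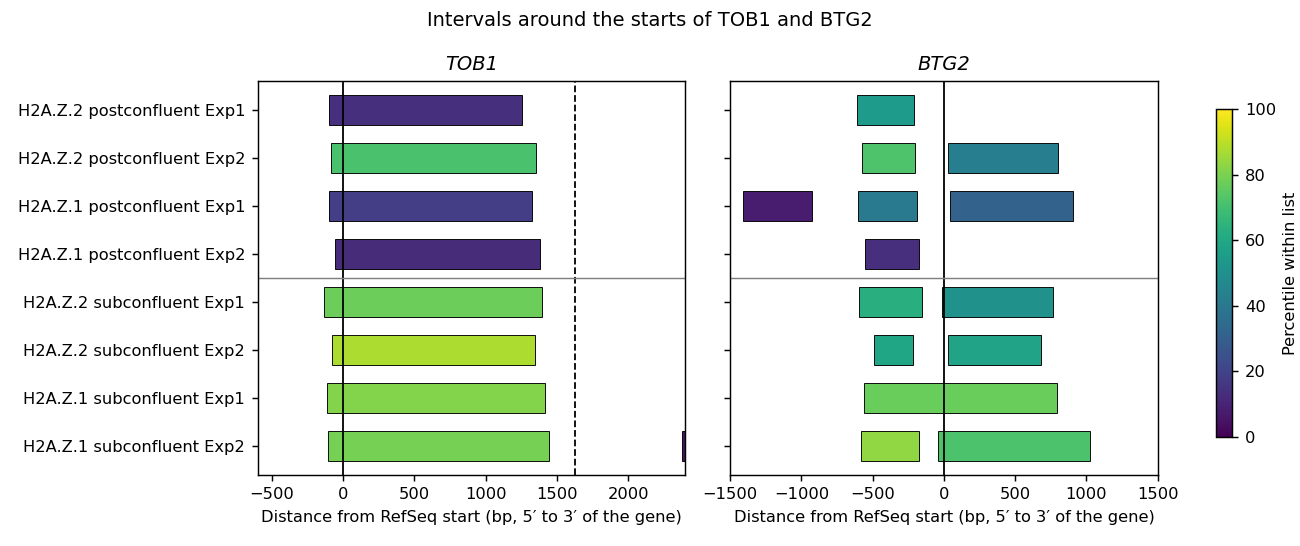
Intervals around the starts of TOB1 and BTG2 in the 8 lists (rows; postconfluent above, subconfluent below the grey line), by distance in bp from the RefSeq start at the solid line, with the inner TOB1 start dashed; colour gives the percentile within the list. The TOB1 interval spans the same stretch in all 8 rows and is dark in 3 of the 4 postconfluent rows, and 2 postconfluent rows lack the BTG2 interval after the start.

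The 250 bases before the BTG2 start, chr1:203305269-203305518, lie mostly in the gap between those intervals, which covered 33 to 250 of them in the 8 lists, with a median of 72. The window has 1 CCAAT and 3 GGGCGG motifs on either strand, marked in capitals as above. Over all genes with a RefSeq start, 32.0% of 35116 such windows hold CCAAT and 42.6% hold GGGCGG, on either strand, against 6 and 10 of 13 windows of the 9 genes described here that have one.
BTG2: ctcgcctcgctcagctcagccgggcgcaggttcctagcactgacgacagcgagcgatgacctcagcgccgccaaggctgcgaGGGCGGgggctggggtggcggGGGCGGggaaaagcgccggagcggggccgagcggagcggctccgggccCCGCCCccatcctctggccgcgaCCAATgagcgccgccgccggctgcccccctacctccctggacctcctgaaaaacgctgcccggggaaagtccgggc

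BTG1 (chromosome 12, 92140278 to 92145846, minus strand), the closest relative of BTG2, had the highest mean and the smallest spread of the 10 genes at the gene ends used. At the RefSeq starts CDKN2C was higher and more even (97.1 ± 2.58; SD, n = 8 lists). BTG1 stood at 90.7 and 83.5 for H2A.Z.2 and at 87.1 and 89.8 for H2A.Z.1 in postconfluent cells, against 80.2 and 91.2 for H2A.Z.2 and 96.1 and 81.4 for H2A.Z.1 in subconfluent cells. The groups overlapped by state and by isoform. Its strongest interval began 805 to 917 bp before the start in all 8 lists, on the side of the divergent transcript BTG1-DT.

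CDKN1A (chromosome 6, 36676463 to 36687332, plus strand) encodes p21, the CDK inhibitor that p53 induces. Within 1 kb of its annotated 5′ end it stood at 29.7 and 51.2 for H2A.Z.2 and at 58.9 and 66.8 for H2A.Z.1 in postconfluent cells. In subconfluent cells it stood at 44.1 and 0 for H2A.Z.2 and at 6.56 and 19.4 for H2A.Z.1. For H2A.Z.1 both postconfluent values lay above both subconfluent values, and for H2A.Z.2 they overlapped. These values came from different intervals. The strongest began at 36675904 in H2A.Z.1 Exp2 and 36676063 in H2A.Z.2 Exp1 of postconfluent cells, and at 36676247 in H2A.Z.1 Exp1 of subconfluent cells. In the other lists with an interval it began at 36677001 to 36677029. The 2 values of H2A.Z.1 in either state thus come from different places. The intervals are shared in 7 lists with DINOL, a noncoding transcript upstream of CDKN1A, in 2 with PANDAR and in 3 with the pseudogene LAP3P2.

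The difference depended on which CDKN1A start was taken. The RefSeq start (36678714) lies 2251 bp inside the annotated 5′ end, outside the 1 kb window, and all 8 lists held an interval there. Within 1 kb of it the strongest interval stood at 42.9 and 70.01 for H2A.Z.2 and at 70.7 and 79.6 for H2A.Z.1 in postconfluent cells, against 72.6 and 89.6 for H2A.Z.2 and 66.0 and 89.3 for H2A.Z.1 in subconfluent cells. The means were 65.8 ± 15.9 in postconfluent and 79.4 ± 11.95 in subconfluent cells at this start, and 51.6 ± 15.97 and 17.5 ± 19.5 at the annotated end (SD, n = 4 lists each). The groups overlapped at either position, and the direction of the means was opposite.

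The CDKN1A window chr6:36678464-36678713 is shown because intervals flanked it. In 7 lists an interval ended 113 to 169 bp before the start and another began between 33 bp before and 75 bp after it, and in H2A.Z.1 Exp1 of subconfluent cells 1 interval ran from 482 bp before to 1582 bp after it. Intervals covered 82 to 250 of the 250 bases, with a median of 138. Capitals mark 4 copies of GGGCGG, of which a pair overlaps, and there is no CCAAT on either strand.
CDKN1A: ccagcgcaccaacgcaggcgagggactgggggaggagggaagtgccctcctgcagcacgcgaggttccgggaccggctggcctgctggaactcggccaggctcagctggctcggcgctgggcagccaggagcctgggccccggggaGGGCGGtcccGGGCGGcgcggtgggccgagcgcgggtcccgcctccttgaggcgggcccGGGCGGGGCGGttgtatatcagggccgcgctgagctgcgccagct

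CDKN1B (chromosome 12, 12717368 to 12722369, plus strand), the gene of p27, had the weakest intervals of the 10. Its percentiles were 20.1 and 10.6 for H2A.Z.2 and were 14.9 and 9.37 for H2A.Z.1 in postconfluent cells. In subconfluent cells they were 6.42 and 0 for H2A.Z.2 and 40.3 and 24.1 for H2A.Z.1. The values for H2A.Z.2 were higher and those for H2A.Z.1 lower in postconfluent than in subconfluent cells, in each experiment. They came from different intervals. For H2A.Z.1 these began 1859 and 1966 bp before the start in postconfluent cells, and 9 and 0 bp after it in subconfluent cells. Their widths were 1723 and 2338 bp, against 330 and 357 bp. For H2A.Z.2 they began 1981 and 18 bp before the start in postconfluent cells, and 1002 bp before it in subconfluent Exp1. The opposite directions were present under 4 of 11 settings. The settings of either end and of RefSeq starts repeated the main values, so they could not differ. Only the ranking by −log10 p gave other values with the same directions. With a window of 2 kb the 3′ end became the stronger one, at 47.1 and 71.1 for H2A.Z.2 and at 50.3 and 90.7 for H2A.Z.1 in postconfluent cells. In subconfluent cells H2A.Z.2 had no interval there among those used, and H2A.Z.1 stood at 13.3 and 7.80. There all 4 postconfluent values lay above all 4 subconfluent values, but this rests on the edge of the window. Subconfluent intervals that began just past it stood at 19.0 and 24.4 for H2A.Z.2 and 33.8 and 60.8 for H2A.Z.1. The postconfluent interval at 90.7 ran past the edge to 12726189, with its summit at 12725950. The intervals at the 5′ end are shared in 7 lists with the neighbouring receptor gene GPR19.

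CDKN1C (chromosome 11, 2883218 to 2885775), the imprinted gene of p57, stood higher in postconfluent cells at the end used, that of the lower coordinate. It had no entry among the RefSeq starts, so its strand was not assigned. It stood at 39.9 and 34.7 for H2A.Z.2 and at 51.3 and 69.6 for H2A.Z.1 in postconfluent cells, against 10.6 and 19.4 for H2A.Z.2 and 0 and 10.8 for H2A.Z.1 in subconfluent cells. All 4 postconfluent values lay above all 4 subconfluent values, as they did at 2.86% of genes with an interval in any list. The means were 48.9 ± 15.4 in postconfluent and 10.2 ± 7.93 in subconfluent cells (SD, n = 4 lists each). The separation was present under 5 settings and absent under the other 5 that could be read for it. With whole lists the groups overlapped, at 53.0 to 88.3 in postconfluent and 13.2 to 55.8 in subconfluent cells. At the end of the higher coordinate, 5 lists held an interval among those used, and the groups overlapped. Postconfluent values there were 10.5 and 30.1 for H2A.Z.2 and 42.4 in H2A.Z.1 Exp2. Subconfluent values there were 1.18 and 6.30 for H2A.Z.1.

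CDKN2A and CDKN2B lie beside each other on chromosome 9 and ranked high in every list. At CDKN2A (21967752 to 21995324, minus strand) the outer start, which begins the ARF transcript, stood at 93.9 and 68.6 for H2A.Z.2 and at 88.4 and 76.6 for H2A.Z.1 in postconfluent cells. There it stood at 72.9 and 61.2 for H2A.Z.2 and 81.0 and 72.3 for H2A.Z.1 in subconfluent cells. The groups overlapped, although the postconfluent list was higher in each of the 4 pairs from the same experiment and isoform. In H2A.Z.2 Exp2 of postconfluent cells the 68.6 came from an interval 990 to 1411 bp after the start. The interval across the start stood at 42.5 in that list, below the 61.2 of its subconfluent pair. With a window of 500 bp, or the summit in the window, 42.5 was the value used. The inner start (21974857), that of the p16 transcript, had no interval within 1 kb in any list, so the high rank of the gene belongs to the ARF start, which CDKN2B-AS1 shares in all 8 lists.

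CDKN2B (22002903 to 22009313, minus strand), the gene of p15, stood at 80.0 and 88.5 for H2A.Z.2 and at 89.3 and 87.3 for H2A.Z.1 in postconfluent cells. In subconfluent cells it stood at 68.2 and 65.8 for H2A.Z.2 and 71.3 and 80.3 for H2A.Z.1. It was higher after confluence in all 4 pairs, by 7.00 to 22.8 percentile points, and the lowest postconfluent value (80.0) fell just under the highest subconfluent value (80.3). The means were 86.3 ± 4.28 in postconfluent and 71.4 ± 6.35 in subconfluent cells (SD, n = 4 lists each).

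CDKN2C (chromosome 1, 50960745 to 50974634, plus strand), the gene of p18, was the gene whose lists separated by isoform. At its annotated 5′ end H2A.Z.2 stood at 86.2 and 79.0 and H2A.Z.1 at 49.9 and 58.5 in postconfluent cells. In subconfluent cells H2A.Z.2 stood at 72.5 and 67.2 and H2A.Z.1 at 46.3 and 32.4. All 4 H2A.Z.2 values lay above all 4 H2A.Z.1 values, as they did at 0.821% of genes with an interval in any list, while the opposite order held at 1.27% of genes and at none of the 10. The means were 76.3 ± 8.23 for H2A.Z.2 and 46.8 ± 10.9 for H2A.Z.1 (SD, n = 4 lists each), and the separation was present under 9 of 11 settings. The 2 exceptions were whole lists and the RefSeq starts. The settings of a 2 kb window and of either end repeated the main values. With lists of 50% length or of equal covered length only 4 lists, those of H2A.Z.2, held an interval. Isoform and tagged line cannot be told apart here. The strongest interval ended 868 bp before the start in H2A.Z.2 Exp2 of postconfluent cells and 885 bp before it in H2A.Z.1 Exp2 of subconfluent cells. In the other lists it reached at least to 33 bp before the start. These intervals are shared in all 8 lists with the neighbouring gene FAF1.

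Another CDKN2C start carried far stronger intervals. Around the middle RefSeq start (50968706) the strongest interval stood at 99.3 and 99.1 for H2A.Z.2 and at 96.7 and 97.9 for H2A.Z.1 in postconfluent cells. There it stood at 97.8 and 91.1 for H2A.Z.2 and 97.0 and 98.3 for H2A.Z.1 in subconfluent cells. The isoforms overlapped there, with means of 96.8 ± 3.83 for H2A.Z.2 and 97.5 ± 0.755 for H2A.Z.1 (SD, n = 4 lists each). The window before this start, chr1:50968456-50968705, has a GC content of 77.2% and 5 copies of GGGCGG, in capitals, and intervals covered 118 to 250 of its bases.
CDKN2C middle start: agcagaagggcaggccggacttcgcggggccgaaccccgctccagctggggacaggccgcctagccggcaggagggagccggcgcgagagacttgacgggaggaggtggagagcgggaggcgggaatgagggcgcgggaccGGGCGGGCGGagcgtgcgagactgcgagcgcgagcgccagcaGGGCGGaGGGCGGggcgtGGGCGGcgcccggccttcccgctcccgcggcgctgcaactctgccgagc

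**Figure D3:**
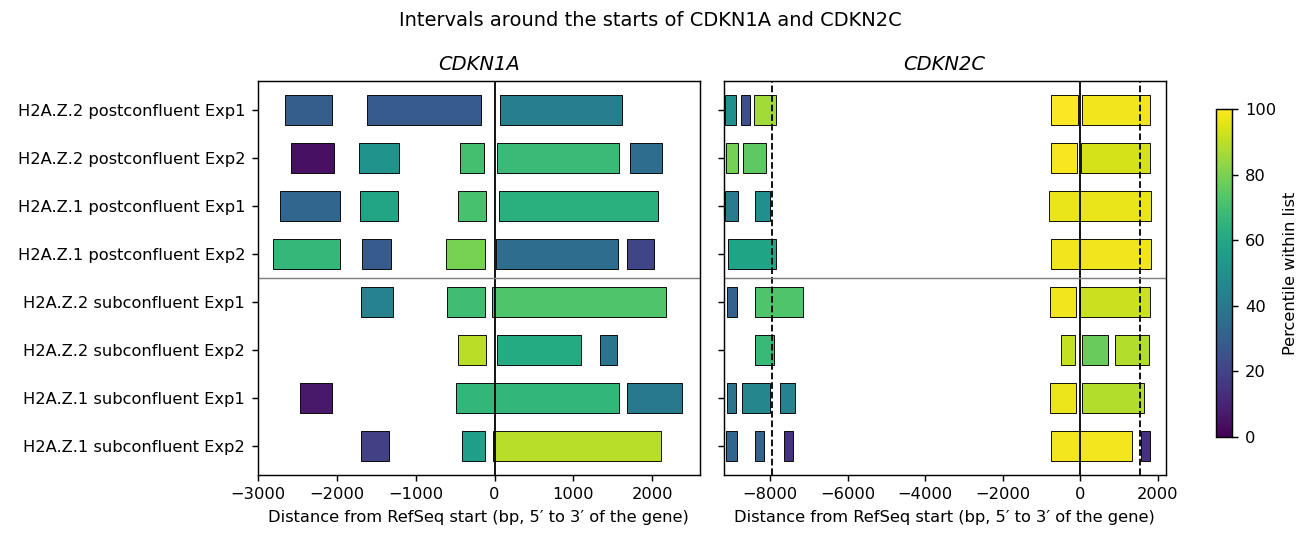
Intervals around the starts of CDKN1A and CDKN2C in the 8 lists (rows; postconfluent above, subconfluent below the grey line), by distance in bp from the RefSeq start at the solid line (for CDKN2C the middle start, the others dashed); colour gives the percentile within the list. Intervals sit on either side of the CDKN1A start. In each list the strongest interval beside the middle CDKN2C start, at 91.1 to 99.3, is brighter than the strongest beside the outer one, at 32.4 to 86.2. Weaker intervals beside either start are also drawn.

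CDKN2D (chromosome 19, 10566460 to 10568979, minus strand), the gene of p19, had its stronger intervals at the 3′ end, where KRI1 shares them in all 8 lists. They stood at 73.0 and 71.8 for H2A.Z.2 and at 45.8 and 68.6 for H2A.Z.1 in postconfluent cells, against 28.9 and 50.7 for H2A.Z.2 and 64.6 and 61.4 for H2A.Z.1 in subconfluent cells. For H2A.Z.2 both postconfluent values were higher, and for H2A.Z.1 the groups overlapped. Around its own start the strongest interval stood at 0 and 41.5 for H2A.Z.2 and at 8.62 and 24.8 for H2A.Z.1 in postconfluent cells, against 22.5 and 4.53 for H2A.Z.2 and 47.9 and 27.4 for H2A.Z.1 in subconfluent cells.

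Upstream of the CDKN2D start the states also differed, while downstream intervals were listed in both. Downstream ones stood at 41.5 in H2A.Z.2 Exp2 and at 8.62 and 24.8 for H2A.Z.1 in postconfluent cells. In subconfluent cells they stood at 20.7 and 10.5 for H2A.Z.1, and H2A.Z.2 had none among those used. An interval with its summit in the 1 kb upstream was listed in 0 of 4 postconfluent and 4 of 4 subconfluent lists, at 22.5 and 4.53 for H2A.Z.2 and 47.9 and 27.4 for H2A.Z.1. Of the 22174 starts of protein-coding genes, 0.185% had this pattern and 0.0812% the opposite, and of the 13 starts described here that of CDKN2D had the first and none had the second. With whole lists 1 of 4 postconfluent and 4 of 4 subconfluent lists held such an interval, so the separation rests on the list length. This pattern was noticed after the values were seen. The window before the start, chr19:10568980-10569229, is printed with its 1 CCAAT and 2 GGGCGG motifs, on either strand, in capitals.
CDKN2D: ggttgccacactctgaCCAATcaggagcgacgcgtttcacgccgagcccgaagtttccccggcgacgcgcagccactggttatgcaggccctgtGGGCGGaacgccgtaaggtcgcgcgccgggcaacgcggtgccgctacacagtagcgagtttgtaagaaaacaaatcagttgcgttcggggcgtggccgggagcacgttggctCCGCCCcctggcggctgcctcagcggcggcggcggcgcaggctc

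Within each isoform the states separated more often, as 2 lists against 2 allow. For H2A.Z.2, both postconfluent values lay above both subconfluent values for 5 of 10 genes (CDKN1B, CDKN1C, CDKN2B, CDKN2C and CDKN2D), and below for TOB1. For H2A.Z.1 they lay above for 4 (CDKN1A, CDKN1C, CDKN2B and CDKN2C) and below for 3 (CDKN1B, BTG2 and TOB1). Of all genes with an interval, 18.1% lay above and 14.9% below for H2A.Z.2, and 16.5% above and 17.2% below for H2A.Z.1. Since these values helped to choose the genes, nothing is read from the counts.

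For the 10885 genes in all 8 lists, the fold enrichment gave a rank in each list, which was expressed as a normal score (in standard deviations) and fitted with limma. Over both isoforms TOB1 had a difference, postconfluent minus subconfluent, of −1.93 (SE 0.391), and 2 of all ranked genes had a lower difference. BTG2 followed at −0.96 (SE 0.354), and CDKN2B was the highest of the 7 at 0.74 (SE 0.346). The other 4 were CDKN2C at 0.56, CDKN2A at 0.51, CDKN2D at 0.44 and BTG1 at −0.06. Single lists moved these values: CDKN2A was 0.12 without H2A.Z.2 postconfluent Exp1 and 0.89 without Exp2 of that group, and CDKN2D was 0.67 without H2A.Z.1 postconfluent Exp1 and 0.21 without Exp2 of that group. BTG1 stood at 0.21 when H2A.Z.1 subconfluent Exp1 was left out and at −0.33 without Exp2 of that group, and its sign also turned, at 0.07 and 0.08, without Exp2 of H2A.Z.2 in postconfluent or in subconfluent cells. The median of the 7 was 0.44 and that of all ranked genes was −0.003, and 4 of the 7 were above 0.

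The ranks in this fit helped to choose the 7 genes, so it is no test of them, and its calls are given only beside those of all genes. At an adjusted limma p under 0.05 it called 0 of the 7 and 5 of all ranked genes (0.0459%) by state. With the experiment number as a block within each isoform it called 1 of the 7, TOB1, and 16 of all ranked genes (0.147%). In Exp1 alone the TOB1 score difference was −2.27 and in Exp2 alone, with all 4 lists on 1 run, −1.59.

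By isoform, the state difference of TOB1 was −1.52 (SE 0.553) for H2A.Z.2 and −2.33 (SE 0.553) for H2A.Z.1. The H2A.Z.2 value was −0.64 without Exp1 and −2.38 without Exp2 of postconfluent cells. That of BTG2 was 0.05 (SE 0.501) for H2A.Z.2 and −1.96 (SE 0.501) for H2A.Z.1, and the difference between the isoforms was 2.00 (SE 0.709). The H2A.Z.2 value of BTG2 was 0.33 without Exp1 and −0.24 without Exp2 of postconfluent cells, and −0.08 without Exp2 of subconfluent cells. CDKN2D had a state difference of 1.09 (SE 0.506) for H2A.Z.2 and −0.21 for H2A.Z.1, the second of which was 0.26 without Exp1 and −0.67 without Exp2 of postconfluent cells. For CDKN2C the score was 1.23 higher for H2A.Z.2 than for H2A.Z.1 over both states (SE 0.347), and 17 ranked genes had a higher difference. It was 1.46 in Exp1 and 1.00 in Exp2, the experiment sequenced on 1 run, and 0.05 at the RefSeq starts. In each of these 4 comparisons (state for H2A.Z.2, state for H2A.Z.1, isoform, and the difference between isoforms) limma called 0 of the 7 genes and 0.0% of all ranked genes. Over all ranked genes 633, 750, 406 and 341 had an unadjusted limma p under 0.05 in them, and 995 in the state comparison over both isoforms.

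**Figure D4:**
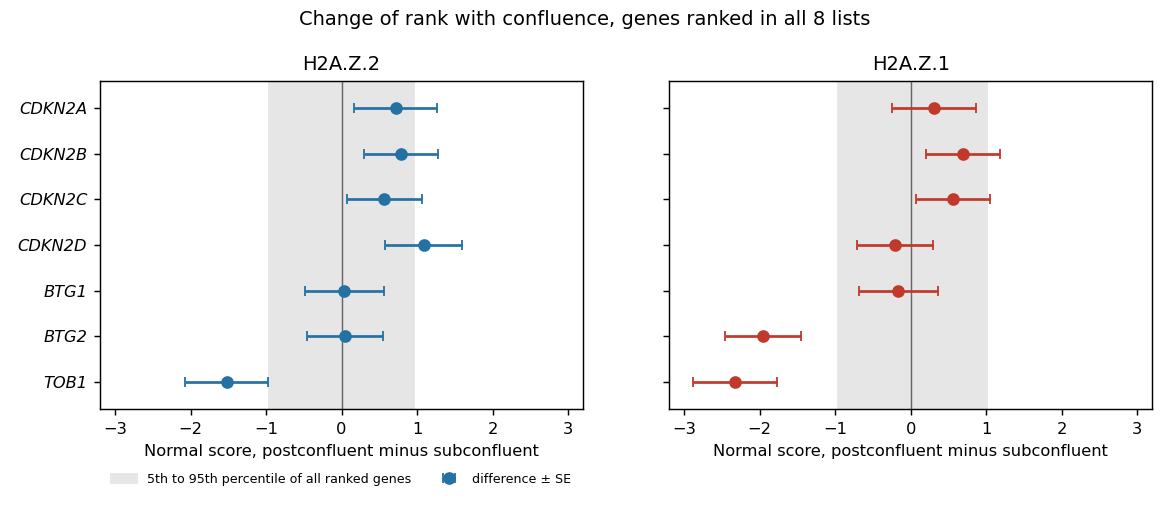
Difference in normal score, postconfluent minus subconfluent (x axis, in standard deviations), of the 7 genes ranked in all 8 lists, for H2A.Z.2 (left) and H2A.Z.1 (right); points are limma estimates, bars ± SE and grey the 5th to 95th percentile of all ranked genes. TOB1 lies left of the grey band for either isoform and BTG2 for H2A.Z.1, at −1.96.

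Most genes of the partners of these proteins were occupied. All 22 genes of G1 cyclins, CDKs, the RB family and E2F factors were occupied in all 8 lists, as were all 14 genes that regulate the CDKN genes or their proteins. Of 15 genes of the other BTG/TOB proteins and the CCR4-NOT complex 12 were, with TOB2 in 6 lists, CNOT6 in 7 and BTG4 in none, beside 54.3% of all protein-coding genes in all 8 lists. The score was higher in postconfluent cells for 13 and lower for 9 of the first list (median 0.04), for 7 and 7 of the second (median −0.02) and for 6 and 6 of the third (median −0.08), beside a median of −0.003 for all ranked genes. By limma 0 of the 48 ranked genes passed in either direction, with 4 at an unadjusted p under 0.05.

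Several of these genes are direct targets or regulators of the inhibitors. CDK6, a kinase that CDKN2 proteins bind, had the highest value of the first list, at percentiles of 86.3 ± 7.82 in postconfluent and 59.8 ± 17.8 in subconfluent cells (SD, n = 4 lists each; score difference 1.23, SE 0.416, limma adjusted p = 0.339). E2F7, an E2F repressor, had the lowest, at 83.8 ± 9.36 in postconfluent and 97.8 ± 2.46 in subconfluent cells (SD, n = 4 lists each; score difference −1.52, SE 0.413, limma adjusted p = 0.261). RBL2, which encodes the pocket protein p130, was next highest at 0.75, and E2F4, its usual E2F partner, next lowest at −0.54. In the second list EZH2 and BMI1, of the Polycomb complexes that silence CDKN2A, differed by 0.77 and 0.62, and CDKN3, a phosphatase of CDK2, and SP1, a factor that binds GGGCGG, by −0.83 and −0.81. In the third, the arginine methyltransferase gene PRMT1 and CNOT9 differed by 0.41 and 0.34, and CNOT11 and CNOT3 by −0.55 and −0.36.

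**Figure D5:**
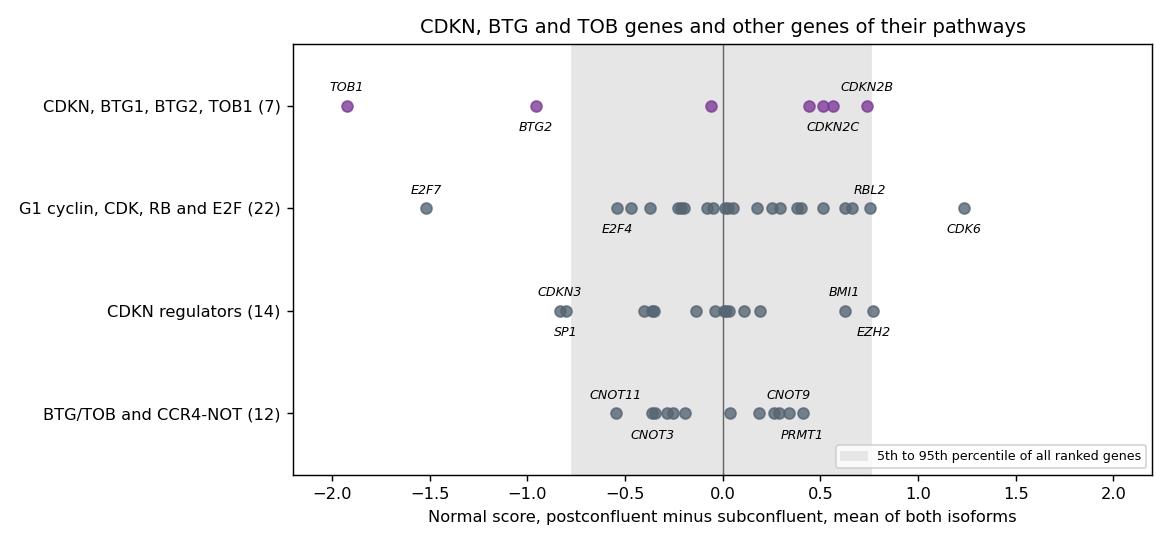
Difference in normal score, postconfluent minus subconfluent, averaged over both isoforms (x axis, in standard deviations), for the 7 ranked CDKN, BTG and TOB genes and the ranked genes of 3 lists of partners (rows, number of genes in brackets); each point is a gene and grey the 5th to 95th percentile of all ranked genes. TOB1 at −1.93 and BTG2 at −0.96 lie left of the band, as do E2F7 at −1.52, CDKN3 at −0.83 and SP1 at −0.81, and CDK6 at 1.23 and EZH2 at 0.77 lie right of it.

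The genes whose scores over the 8 lists were most like those of TOB1 were APEX1 and OSGEP, which share an interval (Pearson r = 0.971, n = 8 lists), and SAR1B (r = 0.967), of 37 genes with r above 0.9 among the 10884 compared. For BTG2 they were BEND6 and DST, on a shared interval (r = 0.983, n = 8 lists), and CHST6 (r = 0.953), of 20 such genes. Such values arise among many genes when lists are few, and lists of 1 run share their sequencing. CDKN1A was not in all 8 lists and was not compared.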

How the data were processed

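Flag ChIP-seq peak lists of 8 samples were analysed, 1 list per sample with replicates not pooled. The genes and lists were chosen with earlier results of these data known. Per the submitters' processing notes, hg38 was the genome build and BWA and deepTools were used. No source used here gives the peak caller, its control or any spike-in scaling, although spike-in chromatin (10 ng) was added per the labels. The deposited values are a score, a fold enrichment (a ratio), −log10 p and −log10 q, and the distance of the summit from the interval's start in bp, used only within a list.

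Intervals were ranked by −log10 p to cut each list to 30603, since lengths differed 2.60-fold. A gene was occupied where an interval overlapped by at least 1 bp the 1 kb on either side of whichever annotated end had the higher mean over all lists (RefSeq, GRCh38.p14). RefSeq starts came from the table of promoters and were matched by symbol for 9 of 10 genes, and CDKN1C had no entry. Normal scores of the genes in all 8 lists entered limma 3.58.1 under R 4.3.3, with a mean for each of the 4 groups and 2-sided tests, with Benjamini-Hochberg adjustment over 10885 genes at 0.05. The step was tested on simulated data. Named genes were all 10, and in each list of partners those with the 2 highest and 2 lowest state differences. Pandas 2.3.3 in Python 3.11.15 was used. The labels call the experiments duplicates, so p-values measure the spread between these lists, which may be technical. Same-numbered lists of an isoform shared a sequencing run, and their deviations from the group means correlated (r = 0.158 for H2A.Z.2 and 0.207 for H2A.Z.1, across genes), so the numbers were taken to pair them. The main fit left this pairing out, and the block within each isoform, given as an alternative, used it.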

Additional observations from a re-analysis of the deposited data

Results flagged for a closer look

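At the 5′ end of CDKN1B the isoforms differed between states in opposite directions in both experiments, under 4 of 11 settings. The settings of either end and of RefSeq starts repeated the main values, so they could not differ. The values came from intervals of different position and width, so they do not follow 1 interval between states. The percentile was 13.7 and 10.6 points higher in postconfluent than in subconfluent cells for H2A.Z.2 (Exp1, then Exp2) and the differences were −25.4 and −14.7 points for H2A.Z.1. The mean effects differ by 32.2 points, a difference that was not tested, since 1 list holds no interval for the gene. With a window of 2 kb, in which the 3′ end was the stronger, the percentile was higher in postconfluent cells in all 4 pairs of lists, by 37.02 to 82.9 points. These differences leave out subconfluent intervals that began just past that window, at percentiles 19.0 to 60.8.

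Among the 4 postconfluent lists, 1 stood apart for 2 genes. At CDKN2D it was H2A.Z.1 Exp1, at percentile 45.8 against 68.6 to 73.0 in the others (gap over range 0.839). At TOB1 it was H2A.Z.2 Exp2, at percentile 71.4 against 12.4 to 18.1 (gap over range 0.903). These were 2 of 20 sets of 4 lists examined, and chance alone gives about 5% of sets.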

How the results depend on the processing

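Of the 10 genes, 7 were occupied in all 8 lists, against 3 with lists of 50% of that length and 4 with lists of equal covered length, and 7 to 9 in all remaining lists when each list was left out. In the state comparison over both isoforms, limma called 0 of the 7 ranked genes, but 1, TOB1, when ranked by −log10 p, with the replicate block within isoforms, or with a block over both isoforms. Leaving out each list gave 0 to 1, and the 1 came without H2A.Z.2 postconfluent Exp2. The ranks helped to choose these genes, so nothing is read from the calls. Under its 21 alternatives the TOB1 difference ranged between −2.54 and −1.47. The blocks changed no other call among these genes, and in the other 4 comparisons 0 were called under every alternative that could be fitted. The number of all genes called by state (5) was 0 with the 50% lists or equal covered length, 41 by −log10 p, 16 and 9 with the blocks, and 0 to 5 with a list left out. The block over both isoforms, RefSeq starts and Exp2 alone were chosen after seeing the data. Peak lists give no depth, so an absent interval sets no upper limit on binding.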
